A study of Mus musculus with 6 samples.

Results

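The genes described here are 8 chemokine genes that T cells and their partner cells transcribe, Ccl1, Ccl3, Ccl4, Ccl5, Xcl1, Ccl22, Cxcl10 and Ccl17. They were chosen by name, and all 8 had a row among the 21362 genes of the deposited tables. Expression was measured by RNA sequencing in 6 libraries of mouse CD4+ T cells, in a series about regulatory T cells given sorafenib, a kinase inhibitor used as a cancer drug, and cells without it. The labels carry a running number and the cell type and place no library in a treatment, so every value is given per library and no treated group was set against an untreated one. The sources used here name no strain, age, culture condition or number of mice. Total counts lay between 32435799 and 36316162 per library. All 8 T cell markers looked at were above 1 CPM (counts-per-million of the TMM-scaled library total), with Cd4 between 412 and 482 CPM. The summed level of the 8 was highest in library 1, at 2560 CPM, and lowest in library 4, at 2203 CPM. Cd3d, Cd3g, Cd2, Cd5, Cd6 and Lck were higher in libraries 1, 2 and 3 than in libraries 4, 5 and 6. Cd4 was the other way round, and Cd3e did not part the libraries in this way. The part of these differences in the chemokine levels was not tested.

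Chemokines are small secreted proteins that guide leukocytes by binding receptors coupled to G proteins. Ccl3, Ccl4 and Ccl5 are inflammatory ligands, and Ccl3 and Ccl5 bind the receptor Ccr1. Ccl17 and Ccl22 are the ligands of Ccr4, a receptor common on regulatory and type 2 helper T cells, and are best known as products of dendritic cells and macrophages. Ccl1 binds Ccr8, Cxcl10 is an interferon-induced ligand of Cxcr3, and Xcl1 is the ligand of Xcr1 on cross-presenting dendritic cells.

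The 8 genes differed widely in level and did not vary in the same way. Ccl3 and Ccl4 were higher in libraries 1, 2 and 3 than in libraries 4, 5 and 6, and Ccl5 was the other way round. Ccl22 varied less, with libraries 4 and 6 highest, and Ccl1 was nearly flat. The share of all genes that part libraries 1, 2 and 3 from libraries 4, 5 and 6 was not counted. With a mean of at least 1 CPM as the limit, 5 of the 8 could be measured well enough for a range, the ratio of the highest library to the lowest. Of these 5, 3 ranged 2-fold or more, namely Ccl3, Ccl4 and Ccl5, against 10.5% of the 11516 genes above that limit. With a limit of 5 CPM, 3 of 4 ranged 2-fold, against 4.69% of 9605 genes. At 4-fold the count was 0 of 5, against 1.3% of all genes. Their median range was 2.38-fold, against 1.29-fold over all genes. Xcl1, Cxcl10 and Ccl17 stayed under the limit with 1 to 19 reads in a library.

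**Figure D1:**
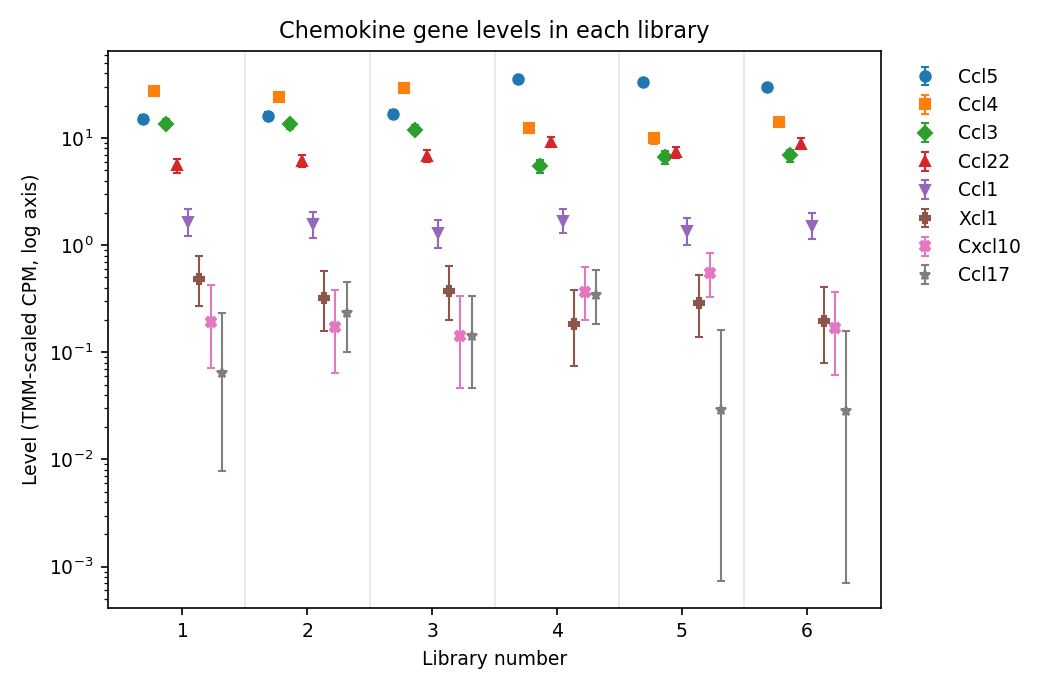
Level of each chemokine gene (CPM, log axis) in libraries 1 to 6, with exact 95% intervals that cover counting error only. Ccl4 stands above Ccl5 in libraries 1, 2 and 3 and below it in libraries 4, 5 and 6, and Xcl1, Cxcl10 and Ccl17 lie under 1 CPM throughout.

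Ccl5, also called RANTES, draws T cells, monocytes and eosinophils. It stood at 15.03, 15.9, 16.7, 35.8, 33.1 and 29.8 CPM in libraries 1 to 6. Libraries 4, 5 and 6 were all above libraries 1, 2 and 3, with a gap of 1.78-fold between the nearest libraries across it and differences of at most 1.20-fold among the higher 3 and 1.11-fold among the lower 3. The highest library, 4, had a 95% interval of 33.9 to 37.8 CPM, and the lowest, 1, of 13.7 to 16.5 CPM, a range of 2.38-fold.

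Ccl4, or MIP-1 beta, attracts T cells and macrophages. Its levels were 27.7, 24.1, 29.4, 12.4, 9.89 and 14.1 CPM. Here libraries 1, 2 and 3 were the higher ones, separated from the other 3 by a gap of 1.71-fold. Library 3 was highest, with a 95% interval of 27.6 to 31.3 CPM, and library 5 lowest, with 8.87 to 10.99 CPM. The range of 2.96-fold was the widest of the 5 genes above 1 CPM. Without library 5 the range was 2.37-fold.

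Ccl3, or MIP-1 alpha, is a ligand of Ccr1 made by activated T cells and myeloid cells. It stood at 13.6, 13.4, 11.9, 5.46, 6.58 and 6.86 CPM, again highest in libraries 1, 2 and 3. The gap between library 3 and library 6 was 1.73-fold. The whole range was 2.47-fold, between library 1 with a 95% interval of 12.3 to 14.9 CPM and library 4 with one of 4.74 to 6.25 CPM. Ccl5 and Ccl3 differed 2-fold or more in 5 of the 15 pairs of libraries and Ccl4 in 6, where 3.18% of all combinations of a gene and a pair did so. In bulk RNA, fewer cells making a transcript and less of it per cell cannot be told apart.

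Natural killer cells and CD8 T cells are other known sources of these 3 ligands and of Xcl1. The 5 natural killer cell markers analysed were all under 1 CPM. Their summed level was highest in library 6, at 0.619 CPM, and lowest in library 4, at 0.422 CPM, and Ncr1, an activating receptor that defines these cells, was at 0 reads in 4 libraries. Cd8a lay between 0.231 and 0.661 CPM, while Cd8b1 lay between 8.15 and 9.57 CPM with a range of 1.17-fold. The summed CD8 pair was highest in library 4, at 10.1 CPM, and lowest in library 3, at 8.52 CPM. All 6 B cell markers summed to 8.25 CPM in library 4, the highest, and 4.86 CPM in library 1, the lowest. Ccl5 had the same highest and lowest library, but the single markers did not all follow it. Cd79b, the most abundant, ranged 2.04-fold, and its widest gap set library 1 below all the others. Cd79a ranged 2.34-fold, with library 5 highest and library 3 lowest. Of the 6 neutrophil markers, only 3 had a row among the deposited genes. These summed to 1.45 CPM in library 1, the highest, and 0.0562 CPM in library 6, the lowest. All but 2 of their reads were of Ly6g, which had 34 to 45 reads in libraries 1, 2 and 3 and 2 to 7 in libraries 4, 5 and 6, and so split the libraries as Ccl3 and Ccl4 did. The 4 stromal or endothelial markers analysed summed to 44.3 CPM in library 2, the highest, and 28.9 CPM in library 5, the lowest. Nearly all of it was Pecam1, an adhesion gene of endothelium and leukocytes, which ranged 1.56-fold and was also higher in libraries 1, 2 and 3, while Col1a2 had 0 reads in 5 libraries. The part of these cells in the chemokine levels was not tested.

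Because Ccl5 and the Ccl3 and Ccl4 pair ran in opposite directions, their sum was nearly level. The summed CPM of the 3 genes was 56.3, 53.4, 58.02, 53.6, 49.5 and 50.8 in libraries 1 to 6, a range of 1.17-fold. Their summed FPKM, the deposited value per gene length and library total, ranged 1.21-fold. It was 83.7, 79.96, 87.98, 97.1, 89.2 and 89.01 in libraries 1 to 6. Libraries 4, 5 and 6 were thus above libraries 1, 2 and 3 in summed FPKM. The summed CPM was instead highest in library 3 and lowest in library 5. The 2 sums differ in library scaling as well as in gene length, since CPM used TMM-scaled totals and FPKM plain totals. The TMM factors were at most 0.967 in libraries 1, 2 and 3 and at least 1.03 in libraries 4, 5 and 6. The part of scaling and of length in this contrast was not tested. All 8 genes together took between 0.00593% and 0.00683% of the counts.

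Ratios within a library do not depend on how libraries were scaled, and they showed the same split. Of the reads assigned to Ccl5 or Ccl4, Ccl5 held 35.2%, 39.7%, 36.2%, 74.3%, 76.97% and 67.9%. The exact 95% intervals of these shares reached no higher than 42.4% in libraries 1, 2 and 3 and no lower than 65.5% in libraries 4, 5 and 6. Per length, the ratio of Ccl5 to Ccl4 FPKM was 0.674, 0.818 and 0.704 in libraries 1, 2 and 3, and 3.59, 4.15 and 2.62 in libraries 4, 5 and 6. Ccl5 was therefore second to Ccl4 in libraries 1, 2 and 3 and the leading chemokine of the 8 in libraries 4, 5 and 6. It made up between 29.8% and 32.9% of the summed FPKM of the 8 genes in libraries 1, 2 and 3, and between 59.3% and 66.6% in libraries 4, 5 and 6.

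The pair Ccl3 and Ccl4 kept a steadier ratio. Ccl3 held 32.9%, 35.7%, 28.9%, 30.6%, 39.97% and 32.7% of the reads assigned to either gene. Library 5 was highest, with a 95% interval of 35.9% to 44.1%, and library 3 lowest, with 26.5% to 31.3%, so these 2 libraries differed by more than counting error. Libraries 1, 2 and 3 and libraries 4, 5 and 6 overlapped in this share. Ccl3 and Ccl4 are neighbours on chromosome 11 in the RefSeq annotation, where a predicted Ccl4 model overlaps Ccl3. The sources used here do not say whether counting used strand, and exchange of reads between them was not tested.

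**Figure D2:**
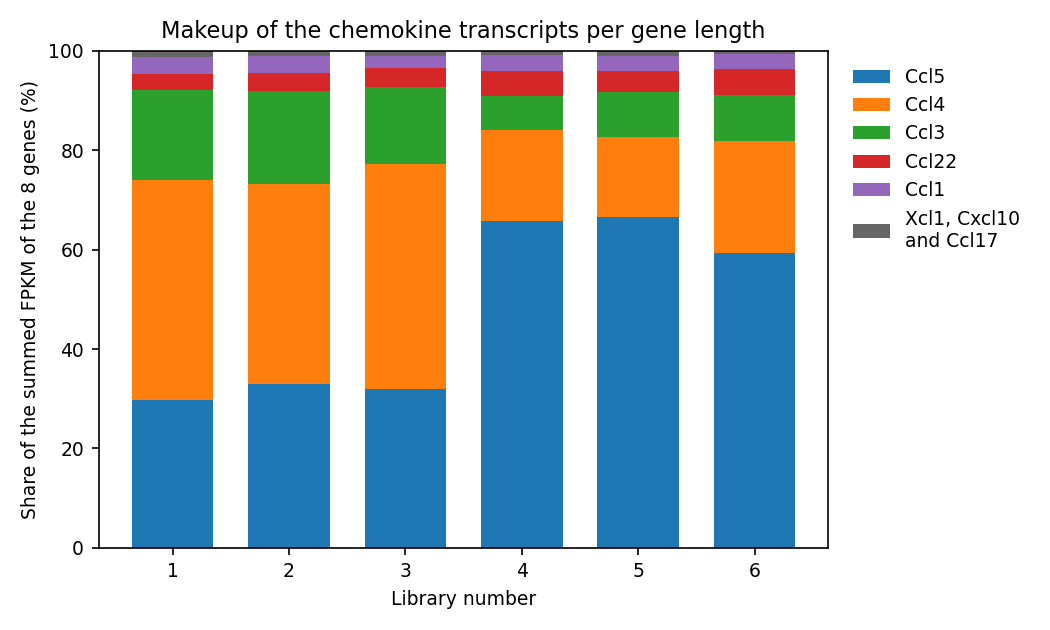
Share of the summed FPKM of the 8 genes (%) taken by each gene in libraries 1 to 6, as stacked bars. Ccl4 is the widest band in libraries 1, 2 and 3, at 40.2% to 45.3%, and Ccl5 in libraries 4, 5 and 6, at 59.3% to 66.6%.

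Of the Ccr4 ligands, Ccl22 was measured and Ccl17 was near the detection limit. Ccl22, also called MDC, stood at 5.54, 6.10, 6.74, 9.20, 7.33 and 8.86 CPM. It was lowest in library 1 (95% interval 4.74 to 6.43 CPM) and highest in library 4 (8.26 to 10.2 CPM), a range of 1.66-fold. Libraries 4, 5 and 6 were above libraries 1, 2 and 3 in CPM, but its widest gap, of 1.21-fold, put libraries 4 and 6 above the other 4. Library 5 and library 3 had overlapping intervals, of 6.46 to 8.29 and 5.91 to 7.66 CPM.

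Ccl17, also called TARC, had 2, 8, 5, 13, 1 and 1 reads in libraries 1 to 6. Library 4 had the most, at 0.343 CPM (95% interval 0.183 to 0.586), and library 6 the least, at 0.0281 CPM (0.000712 to 0.157). In libraries 1, 5 and 6 the gene was below the 3 reads taken here as a floor, which stood for 0.0791 to 0.0966 CPM. Ccl22 and Ccl17 flank Cx3cl1, the fractalkine gene, on chromosome 8, and Cx3cl1 had 1 to 5 reads.

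Both are best known from dendritic cells and macrophages, so the markers of those cells are given beside them. Of the 8 dendritic cell markers, 5 were analysed, and their summed level was 4.27 CPM in library 3 and 7.24 CPM in library 5. Zbtb46, a factor of conventional dendritic cells, made up most of it, at 2.61, 3.04, 2.70, 4.80, 5.12 and 5.45 CPM, and like Ccl22 was higher in libraries 4, 5 and 6 than in libraries 1, 2 and 3. The receptor tyrosine kinase gene Flt3 lay between 0.765 CPM (library 4) and 1.74 CPM (library 1), and the mean of Itgax was 0.212 CPM. Xcr1, which marks cross-presenting dendritic cells, had 0 reads in 5 libraries and 3 reads in library 5. Siglech, a marker of plasmacytoid dendritic cells, likewise had 0 reads in 5 libraries. The 8 macrophage and monocyte markers summed to between 9.54 CPM in library 5 and 13.2 CPM in library 3, nearly all of it the lysosomal gene Cd68. The other 7 had means of at most 0.283 CPM, with Csf1r, Lyz2 and Fcgr1 at 0 in at least 1 library. The part of any of these cells in the Ccl22 and Ccl17 levels was not tested.

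Ccl1, also called TCA-3, was low and even. It stood at 1.64, 1.56, 1.29, 1.69, 1.35 and 1.52 CPM, from 45 to 64 reads. Library 4 was highest, with a 95% interval of 1.30 to 2.16 CPM, and library 3 lowest, with 0.941 to 1.73 CPM. These intervals overlapped, and the range of 1.29-fold was at the median of all genes above 1 CPM.

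Xcl1, or lymphotactin, and Cxcl10, or IP-10, were rare. Xcl1 had 15, 11, 13, 7, 10 and 7 reads in libraries 1 to 6, and the intervals of its highest library, 1 (0.27 to 0.796 CPM), and its lowest, 4 (0.0742 to 0.380 CPM), overlapped. Cxcl10 had 6, 6, 5, 14, 19 and 6 reads, with library 5 at 0.546 CPM (95% interval 0.329 to 0.853) and library 3 at 0.143 CPM (0.0466 to 0.335), whose intervals just overlapped. At this depth the counting intervals of the 2 genes therefore do not part the highest library from the lowest. Overlap of separate intervals is not a test of equal levels, and no such test was made.

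On the per-length scale the median FPKM over the 6 libraries put Ccl5 first, at 44.1, followed by Ccl4 at 28.6, Ccl3 at 11.8, Ccl22 at 3.91, Ccl1 at 3.04, Xcl1 at 0.584, Cxcl10 at 0.163 and Ccl17 at 0.0682. The deposited FPKM of Ccl17 implies a length of 1468 bases, while the nearest transcript in the GENCODE annotation has 514, so its last place rests on the deposited length. Among all genes of the table, 94.3% had a lower median FPKM than Ccl5 and 35.5% a lower one than Ccl17. Neighbours in this order were clearly apart in only 2 places. Every library of Ccl3, at 7.22 FPKM or more, was above every library of Ccl22, at 5.31 FPKM or less, and every library of Ccl1 was above every library of Xcl1. The ranges of Ccl5 and Ccl4, of Ccl4 and Ccl3, of Ccl22 and Ccl1, of Xcl1 and Cxcl10 and of Cxcl10 and Ccl17 overlapped over the libraries. Within libraries, Ccl4 was above Ccl3 in 6 of 6, Ccl5 above Ccl4 in 3 of 6, and Ccl22 above Ccl1 in 5 of 6.

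**Figure D3:**
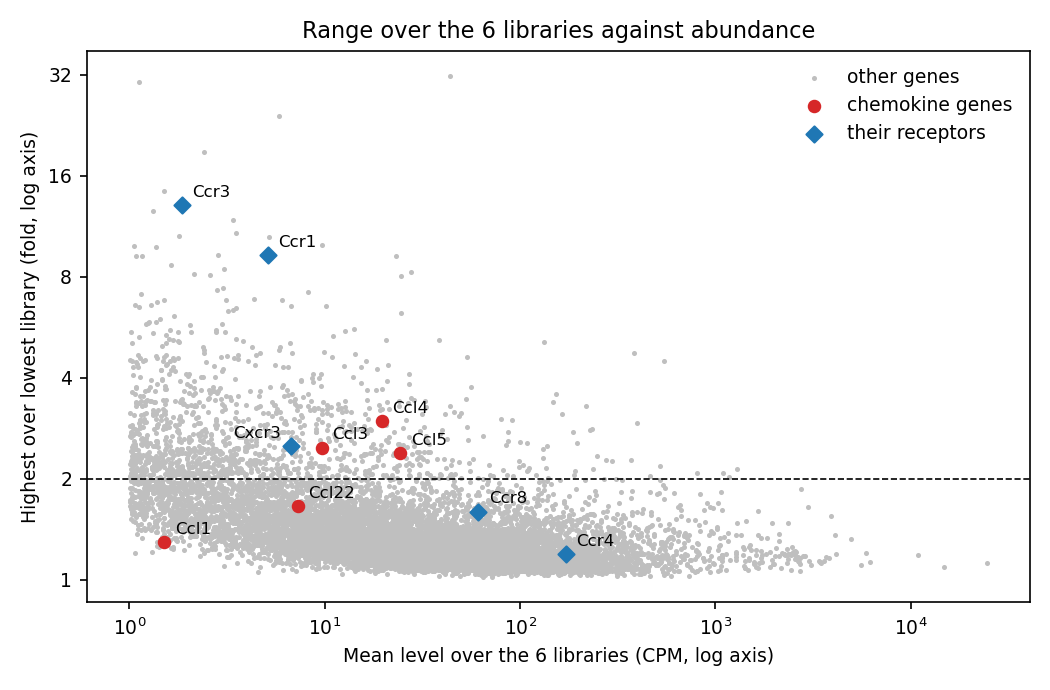
Range over the 6 libraries (highest over lowest, log axis) against mean level (CPM, log axis) for genes whose mean is 1 CPM or more, with the chemokine genes and their receptors marked and a dashed line at 2-fold. Ccl3, Ccl4 and Ccl5 lie above the line between 2.38-fold and 2.96-fold, while Ccr1 and Ccr3 range 9.26-fold and 13.1-fold.

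Promoter sequence was available in the RefSeq table of assembly GRCm38.p6 for 6 of the 8 genes, with Ccl4 and Ccl5 missing. The 250 bases before the annotated start are printed for Ccl3, the most abundant of the 6, for Ccl1, the one with the smallest range, and for Cxcl10, which was near the floor and held the most matches. They lie at chr11:83649379-83649628 (minus strand), chr11:82179813-82180062 (minus strand) and chr5:92348890-92349139 (minus strand). Capitals mark matches on either strand to the patterns of 5 factors or elements, which are spelled out after the sequences.
Ccl3: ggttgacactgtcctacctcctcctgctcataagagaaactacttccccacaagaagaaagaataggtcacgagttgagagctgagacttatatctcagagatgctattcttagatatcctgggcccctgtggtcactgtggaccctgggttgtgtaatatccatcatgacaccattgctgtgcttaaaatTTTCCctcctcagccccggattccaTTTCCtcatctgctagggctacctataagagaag
Ccl1: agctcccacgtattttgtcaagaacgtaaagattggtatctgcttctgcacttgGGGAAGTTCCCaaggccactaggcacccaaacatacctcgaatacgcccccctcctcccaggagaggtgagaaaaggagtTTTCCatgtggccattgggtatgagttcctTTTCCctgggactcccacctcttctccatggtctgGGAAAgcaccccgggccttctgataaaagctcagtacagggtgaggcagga
Cxcl10: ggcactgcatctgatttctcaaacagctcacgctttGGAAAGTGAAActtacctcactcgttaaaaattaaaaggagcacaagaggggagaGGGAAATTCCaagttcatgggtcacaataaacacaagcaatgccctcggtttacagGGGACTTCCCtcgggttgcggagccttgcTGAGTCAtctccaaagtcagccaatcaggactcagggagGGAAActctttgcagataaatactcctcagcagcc

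The patterns were NF-kB (GGGA and CC with 4 bases of any kind between them), AP-1 (TGANTCA), NFAT (the core GGAAA), GAS, the STAT element (TTCNNNGAA), and ISRE, the interferon element (GAAA repeated after 2 bases of any kind). The Ccl3 window held 2 NFAT cores and 0 matches to the other 4 patterns. The Ccl1 window held 3 NFAT cores and 2 NF-kB matches, which overlap each other by all but 1 base. The Cxcl10 window held 2 NF-kB matches, 1 AP-1 match, 1 ISRE match and 3 NFAT cores, of which 1 lies within an NF-kB match and 1 overlaps the ISRE match. Ccl22 had 1 NF-kB match, Ccl17 had 1 NFAT core and 1 GAS match, and Xcl1 had 1 NFAT core. Among 32851 RefSeq promoter windows of that length, 17.6% held the NF-kB pattern, 6.75% AP-1, 55.6% the NFAT core, 7.02% GAS and 2.98% ISRE. These are matches of letters only.

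The receptors analysed were present at unequal levels, and 3 of the 5 above 1 CPM ranged 2-fold or more, against 10.5% of all genes. Ccr1, which binds Ccl3 and Ccl5, stood at 9.53, 9.37, 8.03, 1.34, 0.977 and 1.29 CPM, and Ccr3, the eosinophil receptor that Ccl5 can bind, at 3.70, 2.83, 3.33, 0.422, 0.230 and 0.619 CPM. In both, libraries 1, 2 and 3 were the higher ones, as for Ccl3 and Ccl4 and unlike Ccl5. The range was 9.26-fold for Ccr1, and 13.1-fold for Ccr3, which had 8 to 116 reads. The Ccr3 range was 7.84-fold without library 5 and 6.61-fold with FPKM and its pseudocount.

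Cxcr3, the Cxcl10 receptor of type 1 helper cells, ran the other way, at 5.83, 4.77, 3.73, 8.44, 8.13 and 9.39 CPM, a range of 2.496-fold that was 1.96-fold without library 3. Ccr8, the Ccl1 receptor, stood at 47.1, 56.2, 53.7, 71.2, 63.96 and 74.99 CPM, a range of 1.59-fold, also highest in libraries 4, 5 and 6. Ccr4 was the most abundant of the receptors in CPM and the most even, between 156 and 186 CPM. Per length, Ccr8, at 39.02 to 67.02 FPKM, and Ccr4, at 40.3 to 44.8 FPKM, lay within the range of Ccl5, at 27.1 to 70.3 FPKM. Xcr1 had 3 reads in all and Ackr2, a scavenger of inflammatory chemokines, 1 to 9 per library.

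**Figure D4:**
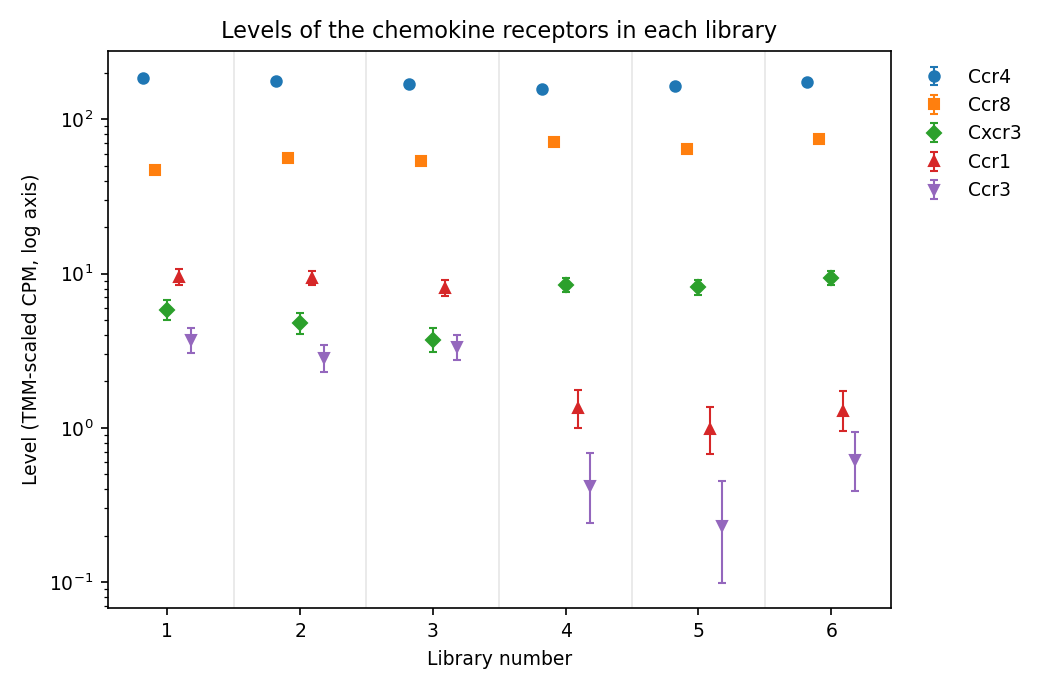
Level of 5 chemokine receptor genes (CPM, log axis) in libraries 1 to 6, with exact 95% intervals for counting error. Ccr1 and Ccr3 are higher in libraries 1, 2 and 3, Cxcr3 and Ccr8 in libraries 4, 5 and 6, and Ccr4 stays between 156 and 186 CPM.

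Other chemokine ligands were scarce. Of 32 further ligand names 21 were analysed, and 2 reached a mean of 1 CPM. Ccl25, a thymus and gut chemokine, was the more abundant, at 5.79 to 7.93 CPM with a range of 1.37-fold. Ccl27a, a skin chemokine, stood at 4.18, 5.001, 4.27, 2.51, 2.85 and 2.36 CPM, a range of 2.09-fold. That range was 1.79-fold without library 2, 1.97-fold without library 6, 1.94-fold with plain total counts and 1.92-fold with FPKM. Its gene overlaps Il11ra1, which lay between 10.9 CPM (library 4) and 19.1 CPM (library 2), and exchange of reads between them was not tested.

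**Figure D5:**
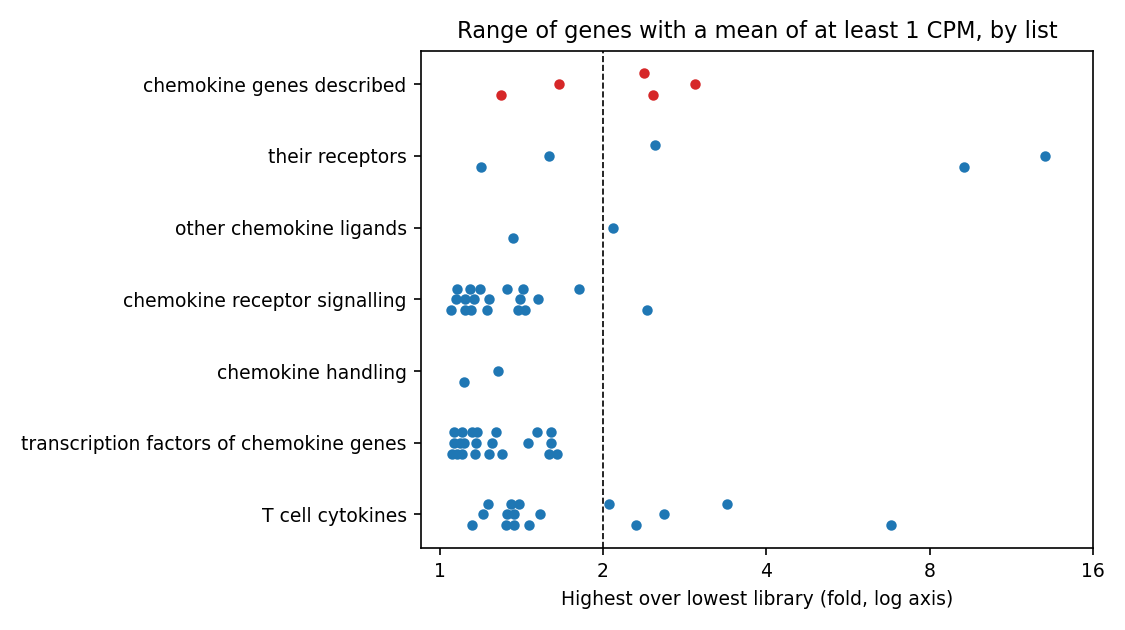
Range over the 6 libraries (highest over lowest, log axis) of each gene whose mean is 1 CPM or more, 1 point per gene and 1 line per list, with a dashed line at 2-fold. The points of the transcription factor list lie at 1.65-fold or less, while 3 chemokine genes and 3 receptors lie beyond 2-fold.

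The median range of 19 genes that carry or dampen the receptor signal was 1.22-fold. Of these, 1 ranged 2-fold or more, a share of 5.26% against 10.5% of all genes. That gene was Rgs2, which shortens G protein signalling, at 38.4, 42.5, 41.04, 19.8, 17.6 and 17.8 CPM. Rgs1, a relative of Rgs2, ranged 1.52-fold. Arrb1, which encodes an arrestin that ends receptor signalling, ranged 1.43-fold, and both genes were likewise higher in libraries 1, 2 and 3. Grk6 and Pik3r5 were instead higher in libraries 4, 5 and 6, with ranges of 1.41-fold and 1.33-fold. Rac2, the GTPase of leukocyte migration and the highest of the list in CPM, ranged from 925 to 1030.4 CPM. Per length Coro1a was the highest of the list, with a median of 366 FPKM against 322 FPKM for Rac2. Of the handling genes, 2 reached 1 CPM and neither ranged 2-fold. With a limit of 5 CPM, signalling and handling genes together counted 1 of 20, against 4.69% of 9605 genes. Srgn, which encodes the granule proteoglycan serglycin, ranged from 716 to 916 CPM, and Dpp4, a protease that trims chemokines, 1.11-fold.

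Of 22 transcription factors known from chemokine genes, all above 1 CPM, 0 ranged 2-fold or more, against 10.5% of all genes. With a limit of 5 CPM it was 0 of 21, against 4.69% of 9605 genes. The median range of the 22 was 1.17-fold. Several of the factors still split the libraries as Ccl3 and Ccl4 did, and others split them the other way. Most of the T cell markers also did 1 or the other, and the share of all genes that do so was not counted. A split shared with the chemokine genes is therefore a description only. Stat3, a factor of cytokine signalling, ranged 1.65-fold, Junb and Jun, of the AP-1 family, 1.61-fold and 1.59-fold, and Nfkb1, an NF-kB subunit, 1.45-fold, each with libraries 1, 2 and 3 above libraries 4, 5 and 6 and a gap of at least 1.24-fold between them. Nfkb2, Nfatc1 and Rel ran the other way, with libraries 4, 5 and 6 higher and ranges of 1.31-fold, 1.23-fold and 1.10-fold. Irf4, the highest by mean CPM, ranged from 895 to 1050.2 CPM. Per length Junb was the highest of the factors, with a median of 368 FPKM against 199 FPKM for Irf4. Of 16 measured T cell cytokine genes, 5 ranged 2-fold or more, against 10.5% of all genes, namely Il2, Il5, Il10, Il13 and Il24, with a list median of 1.38-fold. Il2, the T cell growth factor, had the widest range of the list. It stood at 0.805, 1.39, 1.66, 3.72, 5.81 and 5.31 CPM, higher in libraries 4, 5 and 6, with a range of 6.80-fold that was 4.06-fold without library 1. The other 4 were higher in libraries 1, 2 and 3. Il10, an inhibitory cytokine, ranged 3.39-fold and Il13, a type 2 cytokine, 2.59-fold. Il24 stood at 176, 169, 180.3, 81.7, 78.5 and 101.9 CPM and Il5, the eosinophil growth factor, at 22.98, 29.5, 23.03, 14.4, 15.3 and 18.5 CPM. Il5 ranged 2.05-fold, or 1.60-fold without library 2, 1.92-fold without library 4, 1.88-fold with plain total counts and 1.87-fold with FPKM. Csf2, the gene of GM-CSF, ranged 1.32-fold and Ifng, the interferon gamma gene, 1.53-fold. Tnfsf8, the ligand of CD30 and the highest of the list in CPM, ranged from 391 to 448 CPM. Per length Ltb was the highest of the list, with a median of 266 FPKM against 100 FPKM for Tnfsf8.

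Genes with profiles most like those of the chemokines were sought among 8211 or 8212 named genes whose mean was 10 CPM or more. The measure was the root mean square difference between log2 profiles over the 6 libraries, each centred on its own mean. Ccl3 lay nearest to Basp1, Adam19 and Tnfrsf8, at 0.072, 0.073 and 0.080 log2 units. Tnfrsf8 encodes CD30, and stood between 333 CPM in library 4 and 724 CPM in library 1. Ccl4 lay nearest to Tmem108, the cytokine gene Il24 and Ctla2b, at 0.119, 0.122 and 0.122. Ccl5 lay nearest to Plxnc1, a semaphorin receptor gene, Cmah, a sialic acid hydroxylase gene, and Slc30a1, a zinc exporter gene, at 0.064, 0.066 and 0.070. Ccl22 lay nearest to Chac1, a glutathione-degrading enzyme gene, Timm8a1 and Phpt1, at 0.050, 0.059 and 0.065, and Ccl1 to Nat2, Pex26 and Arl2, at 0.053, 0.056 and 0.056. Among the chemokine genes themselves, Ccl3 and Ccl4 were 0.23 apart. Ccl22 was nearer to the nearly flat Ccl1, at 0.29, than to Ccl5, at 0.32. The measure weighs the size of a range as well as the order of the libraries. In order Ccl22 was like Ccl5, with library 4 highest, library 1 lowest and libraries 4, 5 and 6 above libraries 1, 2 and 3. Ccl1 was 0.54 from Ccl5, 0.56 from Ccl3 and 0.63 from Ccl4. The wider distances were those of Ccl3 and Ccl22, at 0.78, Ccl4 and Ccl22, at 0.82, Ccl3 and Ccl5, at 1.06, and Ccl4 and Ccl5, at 1.13.

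Apart from Ccl3 and Ccl4 themselves, the neighbours looked at of these 2 genes and of Ccl5 had few reads. Next to Ccl3 lies Ccl6, with at most 2 reads in a library, and next to Ccl4 lies Wfdc17, with at most 1. Ccl5 lies between Heatr9, with 6 to 30 reads, and Ccl9, with 4 to 26. Of the genes that overlap Ccl5 and Cxcl10 in the annotation, Gm32650 had 1 to 5 reads and Art3 had 0 to 4.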

How the data were processed

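Per the labels' protocols, RNA came from TRIzol extraction and libraries from the VAHTS Universal V5 kit. Tools in the submitters' processing notes are HISAT2, HTSeq, fastp, DESeq2 and R 3.2.0, with the build GRCm39 and no order; annotation and strand setting: not given in the sources used here. Raw counts per gene and FPKM per gene were deposited by the authors and used unchanged. The FPKM of the 8 genes equalled count over length and library total within a relative 1.69e-08, so FPKM is another scaling of the same reads.

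The labels form no groups, so no test between libraries was made and each library stands alone. Whether libraries came from separate mice or cultures is not stated. CPM used TMM factors (0.958 to 1.04) from edgeR 4.0.16 in R 4.3.3. Ranges used log2 CPM with a prior count of 2 which shrinks low genes, and a minimum mean of 1 CPM. Python 3.11.15, numpy 2.4.6, pandas 2.3.3, scipy 1.17.1 and matplotlib 3.10.9 were used. Clopper-Pearson 95% intervals and the floor of 3 reads cover counting error only, since reads without molecular identifiers are not independent molecules. The range calculation was tested on simulated data. Members and lists were chosen with earlier results of these data known. Genes named are the 8, their receptors above 1 CPM (1 receptor is not reported here), the most abundant gene and those ranging 2-fold in each list, and the 3 nearest profiles, and Dpp4, Csf2, Ifng, Stat3, Jun, Junb, Nfkb1, Rgs1, Arrb1, the marker genes, the neighbours and the genes of the closing section were chosen after their values were seen. Promoters are RefSeq entries of GRCm38.p6, another build than that of the files, and no gene coordinates were transferred. The alternatives were DESeq2 1.42.0 size factors, total counts, FPKM with a pseudocount of 0.1, a prior count of 0.5, a minimum of 5 CPM or none, and each library left out in turn.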

Additional observations from a re-analysis of the deposited data

How the results depend on the processing

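Of the chemokine genes described, 3 ranged 2-fold or more in every alternative except the absence of a minimum, where 6 of 8 did so, the added ones being Xcl1, Cxcl10 and Ccl17, beside 32.2% of all genes. The range stayed between 2.05-fold and 2.51-fold for Ccl3, 2.37-fold and 2.97-fold for Ccl4, 2.19-fold and 2.59-fold for Ccl5, 1.504-fold and 1.80-fold for Ccl22 and 1.24-fold and 1.397-fold for Ccl1 over the 10 alternatives that can change it. With a minimum of 5 CPM the background was 4.69%. The other ligands lost Ccl27a, for a count of 0, with total counts, with FPKM and with a minimum of 5 CPM, and their count lay between 0 and 1 over the libraries left out, being 0 without library 2 or library 6. The receptors counted 2 or 3 over the libraries left out and the cytokine genes 4 or 5. With no minimum, 9 other ligands, 3 signalling and handling genes and 8 cytokine genes ranged 2-fold or more, as did 5 of 7 receptors. Fewer genes tested, or more genes with few reads, set these last differences by construction. Total counts moved the median gene of a library by -0.06 to 0.06 log2 units against TMM, and DESeq2 size factors by -0.01 to 0.02. The order of the 8 genes by median level was the same with TPM. Since TPM was made from the FPKM, it keeps the order within each library by construction, and other gene lengths were not tried. No paired analysis was possible because the labels form no groups. Depth limits Xcl1, Cxcl10 and Ccl17, whose ranges rest on 1 to 19 reads.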

Other observations

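Among the ligands under 1 CPM, a few had enough reads to show differences between libraries, and they were picked after their values were seen. Ccl9, the gene beside Ccl5 and a ligand of Ccr1, had 19, 24, 26, 4, 5 and 6 reads in libraries 1 to 6. Library 3 was highest, with a 95% interval of 0.487 to 1.09 CPM, and library 4 lowest, with 0.0287 to 0.270 CPM, while library 4 was the highest for Ccl5. Ccl20, the ligand of Ccr6, had 2, 16, 13, 12, 15 and 27 reads, lowest in library 1 (0.0078 to 0.233 CPM) and highest in library 6 (0.5003 to 1.10 CPM). Ccl24, the eosinophil chemokine eotaxin-2, had 0 reads in library 1 (95% interval up to 0.119 CPM) and 22 reads in library 6, or 0.619 CPM (0.388 to 0.937). Cxcl3, a neutrophil chemokine, had 9, 25, 25, 13, 6 and 2 reads. For Ccl20, Ccl24 and Cxcl3 libraries 1, 2 and 3 were not on 1 side of libraries 4, 5 and 6.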
